A study of Mus musculus with 22 samples.

Results

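The genes described here are 36 mouse genes of mitosis, chosen by name from 24911 genes in the files, of which 20163 were above 0 in at least 1 library. All 36 were found, and all were above 0 in all 22 libraries. Their products carry a cell through division. Cyclins switch on the kinase CDK1, the Aurora and Polo kinases build the spindle, kinetochore proteins tie chromosomes to it, the spindle checkpoint holds back the anaphase-promoting complex until every chromosome is attached, and kinesins and anillin finish the split into daughter cells. In the immune system these genes are known to be low in resting lymphocytes and high after stimulation, when B and T cells divide rapidly. Many of their promoters are known to be held down outside division by the DREAM complex and switched on late in the cycle by MuvB with B-MYB and FOXM1, through DNA elements named CHR, and by NF-Y at CCAAT boxes.

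The study sequenced poly(A) RNA of mouse primary cells, tissues and a cell line, with 1 library in each of 22 groups, beside chromatin data that were not analysed here. Mature B cells were taken from C57BL/6J spleens by negative selection, per the labels' protocols. The B cell libraries were 6 cultures, named by their stimulus (LPS, LPS+IL4, LPS+IL21, aBCD180, aCD40+IL4 and LPS+a-d-dextran), the B lymphoma line CH12 (clone bc5), and splenic B cells with no stimulus named. LPS is lipopolysaccharide, a bacterial B cell mitogen, and helper T cells make the cytokines IL4 and IL21. The CD4 T cell libraries were cells activated with ConA (concanavalin A, a T cell mitogen), and 4 populations that each had a library labelled MUT and an unmarked one. These populations were Tfh (follicular helper), Tfr (follicular regulatory, gated CD4+CD44+CXCR5+PD1+CD25+), non-Tfh (activated, gated CD4+CD44+CXCR5-PD1-CD25-) and CD4+ T cells. The labels do not say which gene MUT stands for. Basophils, back skin, medulla oblongata, putamen and sensorimotor cortex made up the rest. The strain of the T cells, basophils and tissues, and the age, culture time and stimulus dose of any group, are not given in the labels, and the labels do not say which libraries came from separate animals. P-values below therefore measure only the spread between these libraries, and no group has a replicate library. In the B cell fit it is the spread between cultures under different stimuli. In the T cell fit it is what population and MUT, as added terms, leave over. How much of either spread is technical cannot be told.

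Depth, as the sum of expected counts, was lowest in LPS B, at 30.8 M, and highest in ConA, at 147.9 M, and the lowest count of any of the 36 genes in any library was 8. B cell markers summed to 2171.79 to 12035.10 TPM (transcripts per 1000000 transcripts, a level per length) in the B cell libraries, and T cell markers summed to 3058.03 to 7503.67 TPM in the CD4 T cell libraries, so each carried the markers of its label. The 8 sorted or total CD4 T libraries also held B cell markers, at a sum of 699.71 TPM in Tfh MUT, 501.65 TPM in Tfr and 91.87 to 179.94 TPM in the others. The basophil library carried 36253.90 TPM of basophil and mast cell markers and also 2286.77 TPM of markers of neutrophils and their precursors. Erythroid markers reached 10245.70 TPM in LPS+IL21 B and 4734.83 TPM in aCD40+IL4 B, against 1072.85 TPM in splenic B. In 4 libraries (LPS+IL4 B, CH12, ConA and splenic B) the files' length minus effective length was 49, against 48.56 to 48.57 in the other 18, for a reason that was not tested. The Y-linked Ddx3y was at 42.84 TPM in LPS+IL21 B and 103.61 TPM in splenic B and at most 0.11 TPM in the other 5 B cultures. Most cultures and splenic B thus differ in this gene. Whatever lies behind that cannot be told apart from the stimulus where those 5 cultures are set against splenic B.

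Of the 36 genes, 30 had a promoter in the RefSeq table (build GRCm38.p6), 250 bases before to 50 bases after the gene's start. Either strand was searched for CCAAT, and for the letters of CHR elements, which were TTTGAA and, as the variant, TTCGAA. Of the 30 genes, 21 held CCAAT (70%), against 41.1% of 27025 genes with a promoter in the table. A CHR in either of its spellings was in 22 of 30 (73.3%), against 21.7% of all genes, and both kinds together were in 19 of 30 (63.3%), against 8.6%. A single pair of these matches overlapped, in Ube2c. The letters alone show no binding. The 250 bases before the start are printed for 5 genes that the results return to, 4 with both kinds of letters and Mybl2, 1 of 6 genes with neither in its window. Capitals mark the CCAAT and CHR letters and their reverse complements, and each sequence runs 5′ to 3′ on the gene's strand. The stretches lie at chr7:135716380-135716629 (minus strand) for Mki67, chr10:69352913-69353162 (minus) for Cdk1, chr9:70421555-70421804 (minus) for Ccnb2, chr2:164769679-164769928 (plus) for Ube2c and chr2:163054385-163054634 (plus) for Mybl2.
Mki67: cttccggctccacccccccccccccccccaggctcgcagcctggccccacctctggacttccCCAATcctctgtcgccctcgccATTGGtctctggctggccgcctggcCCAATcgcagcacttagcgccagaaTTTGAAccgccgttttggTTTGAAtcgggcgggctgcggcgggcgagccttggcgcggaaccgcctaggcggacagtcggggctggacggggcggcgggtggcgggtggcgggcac
Cdk1: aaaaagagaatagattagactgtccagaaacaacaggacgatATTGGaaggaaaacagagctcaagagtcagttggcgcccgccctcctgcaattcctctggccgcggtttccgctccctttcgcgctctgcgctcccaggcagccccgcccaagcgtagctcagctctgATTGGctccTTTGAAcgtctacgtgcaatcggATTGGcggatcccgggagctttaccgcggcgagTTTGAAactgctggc
Ccnb2: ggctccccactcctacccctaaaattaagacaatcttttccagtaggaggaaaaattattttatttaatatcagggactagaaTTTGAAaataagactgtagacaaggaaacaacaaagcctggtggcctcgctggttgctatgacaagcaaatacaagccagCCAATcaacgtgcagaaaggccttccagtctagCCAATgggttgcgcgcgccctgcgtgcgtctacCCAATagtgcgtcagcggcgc
Ube2c: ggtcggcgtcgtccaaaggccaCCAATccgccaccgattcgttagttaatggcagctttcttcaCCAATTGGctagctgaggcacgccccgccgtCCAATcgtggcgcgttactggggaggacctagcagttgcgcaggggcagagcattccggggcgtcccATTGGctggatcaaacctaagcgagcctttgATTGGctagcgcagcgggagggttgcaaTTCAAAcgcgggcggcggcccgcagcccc
Mybl2: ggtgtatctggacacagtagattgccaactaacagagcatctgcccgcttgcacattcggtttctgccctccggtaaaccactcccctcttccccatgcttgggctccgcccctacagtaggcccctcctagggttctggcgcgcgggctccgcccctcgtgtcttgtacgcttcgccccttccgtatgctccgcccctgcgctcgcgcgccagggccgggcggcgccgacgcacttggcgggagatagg

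The mitosis genes were highest in LPS+IL4 B, where their median was 90.5 TPM, followed by LPS+a-d-dextran B (69.0 TPM), CH12 (68.2 TPM), aBCD180 B (62.6 TPM), LPS+IL21 B (60.02 TPM) and LPS B (54.2 TPM). Basophils (46.0 TPM), ConA (40.0 TPM), Tfh MUT (39.1 TPM) and Tfr (32.3 TPM) came next. Tfh (14.9 TPM), Tfr MUT (14.7 TPM) and aCD40+IL4 B (12.8 TPM) lay lower, and non-Tfh, non-Tfh MUT, splenic B, CD4+ MUT and CD4+ ran down to 5.36 TPM. Back skin (4.38 TPM) and putamen (2.71 TPM) were lower still, and cortex (0.955 TPM) and medulla (0.88 TPM) were lowest. With a single library per group, neighbours in this order cannot be told apart beyond a spread that was not measured. By gene, the highest library was LPS+IL4 B for 21 of 36, LPS+a-d-dextran B for 9, CH12 for 3, aBCD180 B for 2 and medulla for 1. The lowest was cortex for 17, medulla for 15, back skin for 3 and CD4+ for 1.

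**Figure D1:**
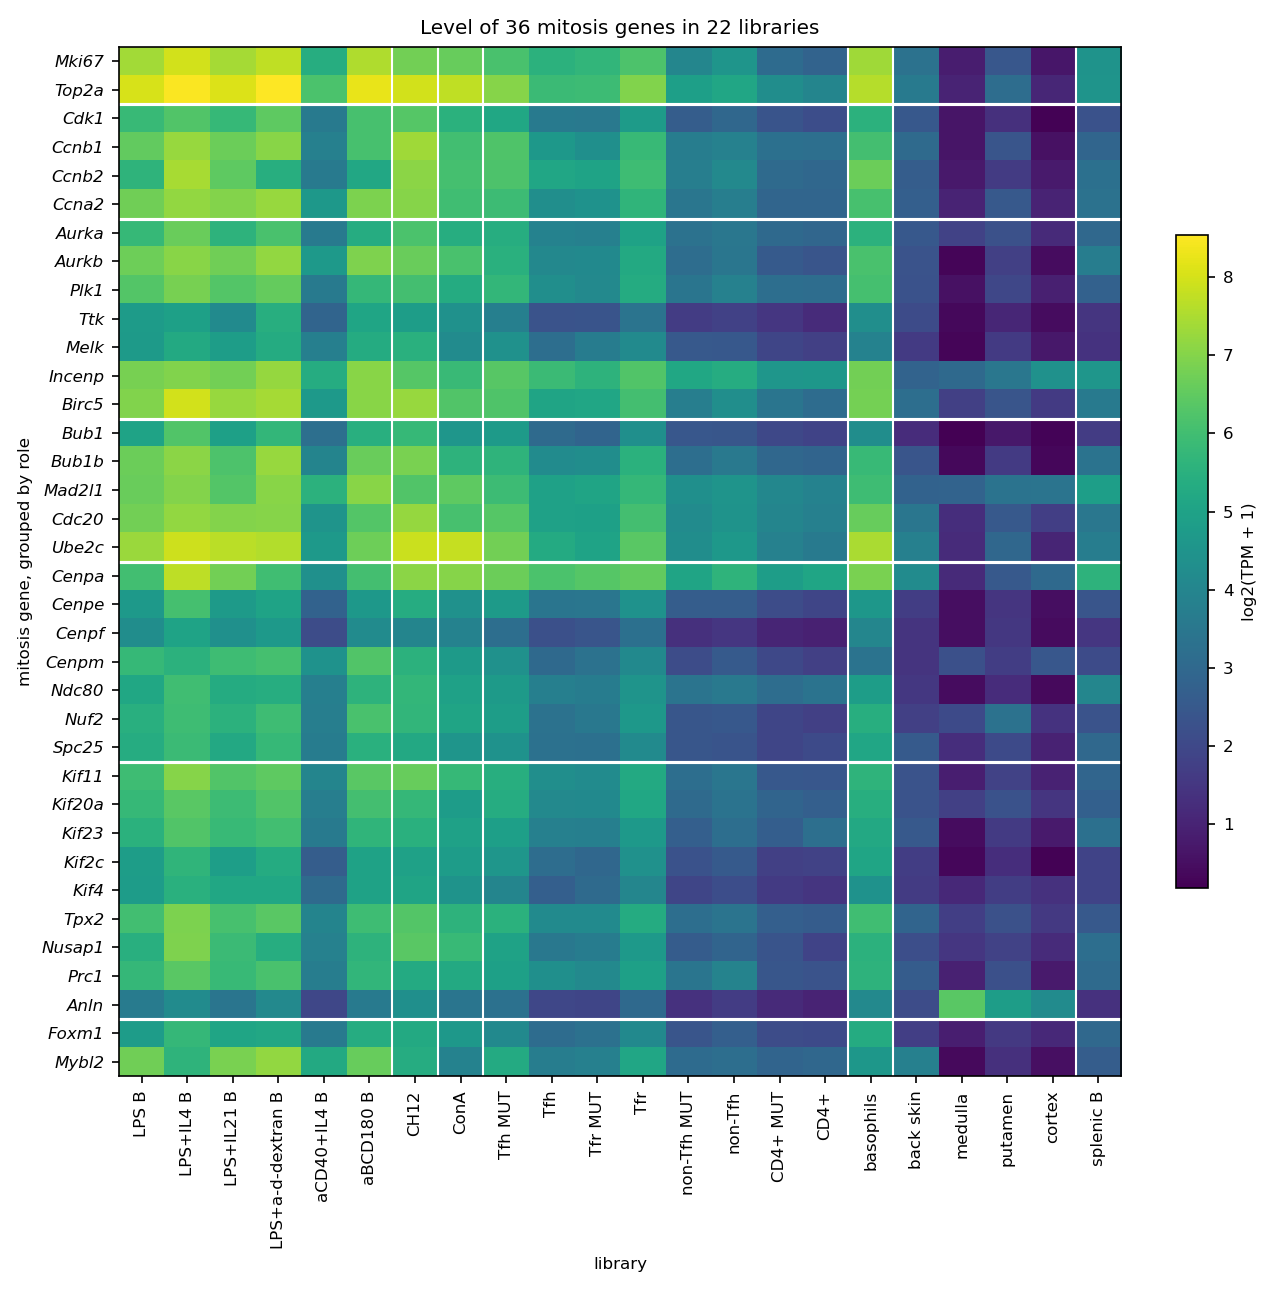
Level of each of the 36 mitosis genes (rows, grouped by role, white lines between groups) in each of the 22 libraries (columns), as log2(TPM + 1) on the colour scale. The 5 cultures other than aCD40+IL4 B, with CH12, ConA, Tfh MUT, Tfr and basophils, form the bright columns, and Anln is the row that is bright in medulla, at 83.1 TPM.

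In stimulated B cells nearly the whole set was far above splenic B in 5 of 6 cultures. The mean of the 6 cultures was above splenic B for all 36 genes, with a median ratio of 10.5, from 1.84 for Cenpa (the centromeric histone H3 variant) to 18.6 for Bub1 (a checkpoint kinase). A single splenic library cannot carry a test on its own for each culture, so each was read by a rule of size, a difference of at least 2 in log2(TPM + 1) with at least 10 TPM on the higher side. By that rule 32 of 36 genes were higher in LPS B than in splenic B, where 2.78% of all genes with at least 1 TPM in either library were. The 4 that missed it were Mad2l1, Cenpa, Ndc80 and Foxm1. The count was 35 in LPS+IL4 B (3.93% of all genes), with Ndc80 missing it, 32 in LPS+IL21 B (2.42%), 34 in LPS+a-d-dextran B (4.69%) and 33 in aBCD180 B (3.93%). Ndc80 missed the rule in every culture, and Cenpa in every one but LPS+IL4 B. The count was 3 in aCD40+IL4 B (1.22%), namely Melk, Cenpm and Mybl2. The median difference of all genes in these comparisons was not 0 (-0.20 in LPS B and -0.34 in LPS+IL4 B against splenic B), and that of the 36 was 3.03 and 3.66.

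Mki67, the gene of the Ki-67 proliferation antigen, was at 164.82 TPM in LPS B, 252.53 in LPS+IL4 B, 171.45 in LPS+IL21 B, 210.99 in LPS+a-d-dextran B, 40.52 in aCD40+IL4 B and 188.14 in aBCD180 B, against 21.15 TPM in splenic B. Top2a, topoisomerase II alpha, which untangles sister chromatids, was at 262.95, 360.83, 272.34, 372.47, 71.75 and 306.01 TPM in the same cultures, against 21.94 TPM in splenic B. For both genes the 6 cultures lay above splenic B, and aCD40+IL4 B was the lowest of the 6.

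Among the cyclins and their kinase, Cdk1 was at 55.52 TPM in LPS B, 77.13 in LPS+IL4 B, 54.39 in LPS+IL21 B, 87.29 in LPS+a-d-dextran B, 11.34 in aCD40+IL4 B and 67.27 in aBCD180 B, against 3.92 TPM in splenic B. Ccnb1, cyclin B1, was at 91.95, 153.1, 100.46, 133.49, 13.09 and 67.63 TPM in the same order, against 6.47 TPM in splenic B. Ccna2, cyclin A2, was at 104.28, 145.08, 126.73, 151.97, 23.73 and 118.24 TPM, against 9.12 TPM in splenic B. For each of these 3 genes aCD40+IL4 B was the culture closest to splenic B, while the highest culture was LPS+a-d-dextran B for Cdk1 and Ccna2 and LPS+IL4 B for Ccnb1. Ccnb2, cyclin B2, was spread more widely, at 47.75, 174.93, 87.87, 41.97, 11.34 and 35.23 TPM, against 8.52 TPM in splenic B. It was the gene furthest above LPS B in LPS+IL4 B and the one most below LPS B in LPS+a-d-dextran B.

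In the group of mitotic kinases and the chromosomal passenger complex, Birc5 (survivin) was highest in the 4 LPS cultures, with 252.97 TPM in LPS+IL4 B, and was at 24.97 TPM in aCD40+IL4 B, against 11.17 TPM in splenic B. Ttk (the checkpoint kinase MPS1) was at 29.65 TPM in LPS+IL4 B and 6.33 TPM in aCD40+IL4 B, against 1.79 TPM in splenic B. Plk1, the Polo kinase, was at 111.39 TPM in LPS+IL4 B and 11.47 TPM in aCD40+IL4 B, against 5.91 TPM in splenic B. Incenp, the scaffold of the passenger complex, was at 148.89 TPM in LPS+a-d-dextran B, 131.07 TPM in aBCD180 B and 39.94 TPM in aCD40+IL4 B, against 22.97 TPM in splenic B, and was the highest of the group in the last 3.

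Of the checkpoint and anaphase genes, Ube2c, the ubiquitin-conjugating enzyme of the anaphase-promoting complex, ran from 25.09 TPM in aCD40+IL4 B to 240.38 TPM in LPS+IL4 B, against 12.24 TPM in splenic B, and was the highest of the group in the 4 LPS cultures. In aCD40+IL4 B, aBCD180 B and splenic B the highest was Mad2l1, a checkpoint protein. Bub1 was lowest of the group, from 8.37 TPM in aCD40+IL4 B to 76.56 TPM in LPS+IL4 B, against 2.16 TPM in splenic B. Cdc20, which activates that complex, ran from 21.87 TPM in aCD40+IL4 B to 146.03 TPM in LPS+IL4 B, against 10.27 TPM in splenic B.

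The centromere and kinetochore group held the 2 genes with the smallest ratios of the culture mean to splenic B, Cenpa and Ndc80. Cenpa was at 63.73 TPM in LPS B, 206.98 in LPS+IL4 B, 107.45 in LPS+IL21 B, 62.42 in LPS+a-d-dextran B, 19.87 in aCD40+IL4 B and 64.64 in aBCD180 B, against 47.54 TPM in splenic B. Its aCD40+IL4 level was thus below that of splenic B, at 0.418 times. Ndc80, a kinetochore subunit that holds microtubules, was at 12.93 TPM in aCD40+IL4 B and 34.41 to 62.12 TPM in the other cultures, against 15.03 TPM in splenic B. The checkpoint gene Mad2l1 also had a raised base, with 45.95 TPM in aCD40+IL4 B and 78.11 to 132.48 TPM in the other cultures, against 27.97 TPM in splenic B. Cenpf, a large kinetochore protein, ran from 3.35 TPM in aCD40+IL4 B to 31.47 TPM in LPS+IL4 B, against 1.82 TPM in splenic B. Splenic B cells thus carried Cenpa, Mad2l1, Incenp and Ndc80, beside Mki67 and Top2a, at 15.03 TPM or more, while Cdk1, Bub1 and Ttk were at 1.79 to 3.92 TPM.

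Among the kinesin, spindle and cytokinesis genes, Kif11, the motor that pushes spindle poles apart, ran from 14.85 TPM in aCD40+IL4 B to 128.78 TPM in LPS+IL4 B, against 6.47 TPM in splenic B. It was the highest of the group in every culture except LPS B, where Tpx2, a spindle assembly factor, was at 63.02 TPM, and in splenic B the highest was Kif23, at 8.59 TPM. Anln (anillin) was lowest, from 2.90 TPM in aCD40+IL4 B to 17.59 TPM in LPS+IL4 B, against 1.56 TPM in splenic B. Foxm1 was at 10.94 TPM in aCD40+IL4 B and 27.06 to 52.83 TPM in the other cultures, against 6.97 TPM in splenic B. Mybl2 (B-MYB) was at 104.22 TPM in LPS B, 48.17 in LPS+IL4 B, 116.36 in LPS+IL21 B, 146.26 in LPS+a-d-dextran B, 37.02 in aCD40+IL4 B and 95.23 in aBCD180 B, against 5.23 TPM in splenic B. It was the 1 of the 36 with the smallest gap between aCD40+IL4 B and the lowest of the other cultures, at 0.769 times.

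**Figure D2:**
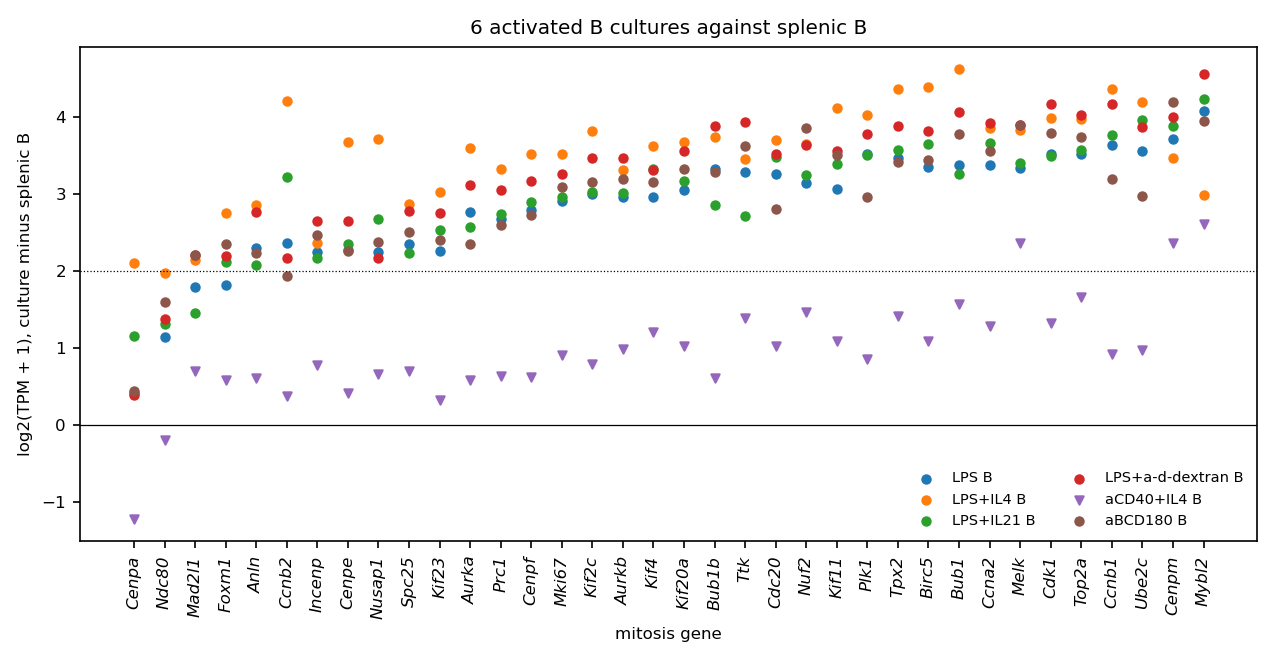
Difference in log2(TPM + 1) of each of the 6 activated B cultures from splenic B (y axis) for each of the 36 genes (x axis, ordered by the median culture). The dotted line is the difference of 2 used by the rule of size. The aCD40+IL4 B triangles lie lowest for every gene, and only those of Melk, Cenpm and Mybl2 are above the dotted line.

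A joint fit of the 6 cultures against splenic B (edgeR quasi-likelihood test, adjusted over 13714 genes) treats the lone splenic library as if it varied like the cultures. It called 0 of the 36 genes, and 0.0219% of all genes higher. Unadjusted, 33 of the 36 had p under 0.05. The nearest to the threshold were Melk, at a log2 fold change of 4.47 ± 0.84 (SE, edgeR adjusted p = 0.0736), and Cenpm, at 4.36 ± 0.87 (adjusted p = 0.0811). DESeq2 called 34 of the 36, where it called 9.24% of all genes higher, and limma on log2(TPM + 1) called 0. With aCD40+IL4 B left out edgeR called 31 of the 36, where 1.67% of all genes were called higher, and leaving out any other culture left the count at 0.

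The aCD40+IL4 culture stood apart from the other 5 in all 36 genes. It was the lowest of the 6 for each, with a median of 0.272 times the next lowest culture. Genes of S phase, the stage of DNA copying before mitosis, did not set it apart in the same measure: the median of 26 such genes was 60.8 TPM in aCD40+IL4 B and 64.4 to 140.8 TPM in the other cultures, against 16.1 TPM in splenic B. The ratio of the mitosis median to the S phase median was 0.211 in aCD40+IL4 B and 0.444 to 1.41 in the other cultures, against 0.433 in splenic B. Directly against LPS+IL4 B, aCD40+IL4 B had a lower value for 36 of 36 mitosis genes, by a median log2 ratio of -2.67, and the 26 S phase genes had a median of -0.34, with 7 of them higher. The 65 other mitosis genes had a median of -2.21, and 15 subunits of the anaphase-promoting complex -0.14. Against LPS B, which has the same effective length as aCD40+IL4 B, the median log2 ratio was -1.95 for the 36 mitosis genes, with 0 higher, and -1.07 for the 26 S phase genes, with 1 higher, so the gap between the lists was smaller there. This rests on 1 library per culture and has no replicate check. The erythroid marker sum given above was higher in aCD40+IL4 B than in splenic B. It was higher still in LPS+IL21 B, where the median of the mitosis genes was 60.02 TPM. The part of that marker sum in the result was not tested.

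LPS+IL4 B, unlike aCD40+IL4 B, lay above LPS B for most mitosis genes, while both lay below LPS B for most S phase genes. Of the 36 mitosis genes 34 were higher in LPS+IL4 B than in LPS B, by a median log2 ratio of 0.63, while 1 of 26 S phase genes was higher, with a median of -0.79, and the median of 8559 genes with at least 10 TPM in either library was -0.22. The extremes were Ccnb2 at 1.85 and Mybl2 at -1.10. LPS+IL21 B had 26 of 36 mitosis genes above LPS B with a median of 0.10, LPS+a-d-dextran B 33 with a median of 0.42, and aBCD180 B 23 with a median of 0.16. In LPS+a-d-dextran B and in aBCD180 B, 26 of 26 S phase genes were above LPS B. LPS+IL4 B is 1 of the 4 libraries with the other effective length. Relative to the median of the 36 genes in the same library, Mybl2 was at 0.343 to 0.750 in those 4 and at 1.52 to 2.88 in the other 5 cultures, and Cenpa was at 1.97 to 6.82 in those 4 and at 0.90 to 1.79 in the other 5. That gap was not kept outside the cultures, in libraries whose length minus effective length was 48.56 to 48.57. There Mybl2 was within the range of those 4 in basophils (0.513), medulla (0.364), putamen (0.558) and cortex (0.461), and above it in the rest. Cenpa was within its range in basophils (2.49) and back skin. In sorted or total CD4 T libraries Cenpa ran from 2.56 (Tfh MUT) to 6.19 (CD4+). It was at 1.44 in medulla, 1.76 in putamen and 7.56 in cortex. The part of the difference in effective length in the results was not tested. LPS+IL4 B, CH12, ConA and splenic B share the same effective length.

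**Figure D3:**
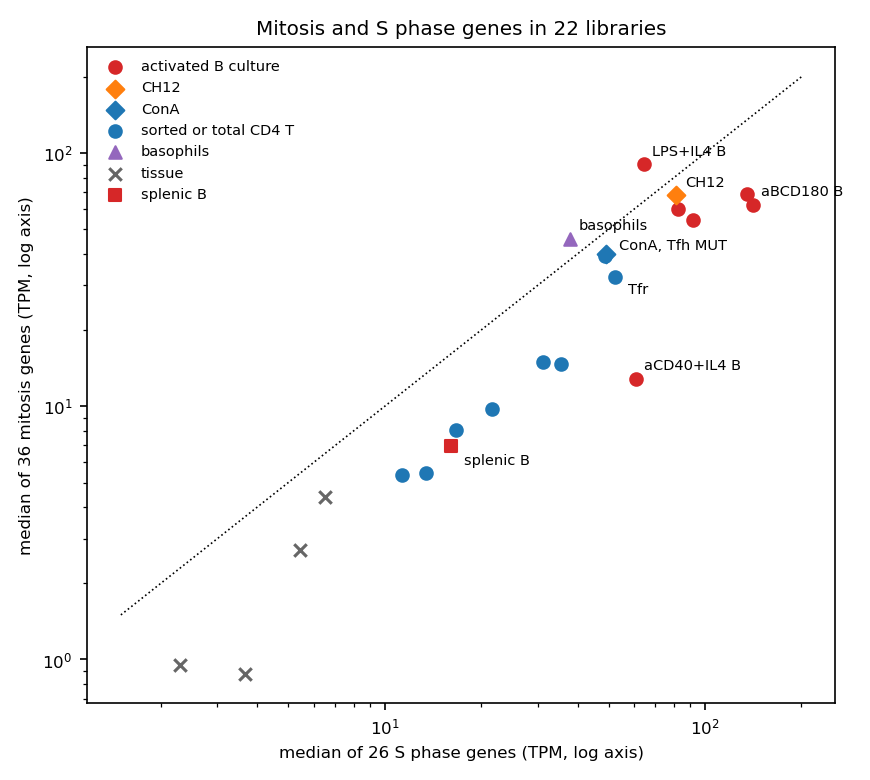
Median TPM of the 36 mitosis genes (y axis, log) against the median TPM of 26 S phase genes (x axis, log), 1 point per library, with a dotted line where both are equal. The aCD40+IL4 culture sits at 60.8 TPM on the S phase axis and 12.8 TPM on the mitosis axis, below the other cultures, while LPS+IL4 B and basophils lie above the line.

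CH12 cells divide without a stimulus. Over the set their median was 68.2 TPM, within the 12.8 to 90.5 TPM of the activated cultures. By the rule of size 32 of 36 genes were higher in CH12 than in splenic B (6.82% of all genes), with a median ratio of 11.6, from 2.71 for Mad2l1 to 26.1 for Melk, a kinase of dividing cells. Against all 6 cultures together the rule named 0 of the 36 in either direction, where 2.08% of all genes were higher in CH12 than in every culture and 0.698% lower. That rule needs the same difference from every culture, and the cultures are themselves far apart. The count of 0 therefore does not show that CH12 matches them. Ccnb1 was at 163.74 TPM in CH12, above each of the cultures, and Mki67 was at 108.24 TPM in CH12, below each culture except aCD40+IL4 B.

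ConA-activated T cells were likewise above the CD4+ T cells, whose labels name no stimulus, for most of the set. Against both CD4+ libraries, 29 of 36 genes were higher in ConA by the rule of size, where 4.03% of all genes were. The median ratio of ConA to the mean of CD4+ MUT and CD4+ was 8.72, from 2.09 for Mybl2 to 18.2 for Ube2c. Ube2c was at 225.56 TPM in ConA, against 13.61 TPM in CD4+ MUT and 11.14 TPM in CD4+. Mki67 was at 94.95 TPM in ConA, against 7.56 TPM in CD4+ MUT and 6.23 TPM in CD4+. Cdk1 was at 44.51 TPM in ConA, against 4.12 TPM in CD4+ MUT and 3.49 TPM in CD4+. Mybl2 was at 13.73 TPM in ConA, against 6.28 TPM in CD4+ MUT and 6.83 TPM in CD4+. Length minus effective length was 49 in ConA, against 48.57 in both CD4+ libraries. The reason for that small difference was not tested. Whatever lies behind it cannot be told apart from the size of these ratios, that of Mybl2 among them. Against splenic B, which shares the effective length, 27 of 36 genes were higher in ConA (5.07% of all genes). B cell markers were near 0 in ConA, at a median of 0.00856% to 0.0276% of their level in each of the 6 B cultures, while the 36 genes were at a median of 45.2% to 75.0% of their level in 5 of the cultures and 308% of that in aCD40+IL4 B.

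Among the sorted T cells, Tfh and Tfr libraries had more of the set than CD4+ libraries, and non-Tfh libraries lay between. Mki67 was at 69.64 TPM in Tfh MUT, 46.00 in Tfh, 50.21 in Tfr MUT, 72.58 in Tfr, 15.27 in non-Tfh MUT and 22.31 in non-Tfh, against 7.56 TPM in CD4+ MUT and 6.23 in CD4+. The ranges of Tfh and Tfr did not overlap those of non-Tfh or CD4+. Top2a was at 130.3 TPM in Tfh MUT, 57.99 in Tfh, 58.72 in Tfr MUT, 122.86 in Tfr, 29.11 in non-Tfh MUT and 33.98 in non-Tfh, against 18.2 TPM in CD4+ MUT and 14.84 in CD4+. Ccnb1 was at 75.12 TPM in Tfh MUT, 24.0 in Tfh, 19.37 in Tfr MUT, 54.73 in Tfr, 12.24 in non-Tfh MUT and 13.36 in non-Tfh, against 8.53 TPM in CD4+ MUT and 8.43 in CD4+. Incenp was at 81.48 TPM in Tfh MUT, 57.47 in Tfh, 47.26 in Tfr MUT, 75.6 in Tfr, 34.46 in non-Tfh MUT and 40.33 in non-Tfh, against 22.86 TPM in CD4+ MUT and 23.46 in CD4+. In each of these genes Tfh MUT and Tfr were the highest pair.

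In 1 fit of the 8 T libraries with population and MUT as terms, 27 of 36 genes rose in Tfh over CD4+ by edgeR's quasi-likelihood test (adjusted over 13064 genes), and 15.3% of all genes were called higher. Their median log2 fold change was 2.16, against 0.03 over all genes tested. Mki67 rose by 2.78 ± 0.31 (SE, edgeR adjusted p = 0.00284), Prc1, the bundler of midzone microtubules, by 2.27 ± 0.34 (adjusted p = 0.00715), and Ccnb2 by 2.62 ± 0.45 (adjusted p = 0.0102). The 9 genes that did not pass were Ttk, Cdc20, Plk1, Anln, Bub1, Kif23, Aurka, Mybl2 and Ndc80, the last at 0.87 ± 0.39 (edgeR adjusted p = 0.146). For Tfr over CD4+, 21 of 36 rose, where 16.8% of all genes were called higher, with a median of 1.92, and DESeq2 called 35 (20.3% of all genes). Mki67 led again, at 2.83 ± 0.31 (edgeR adjusted p = 0.00213). Non-Tfh over CD4+ had 0 of 36 past the threshold in edgeR, with 3.23% of all genes called higher, and a median of 0.58. There 2 genes had an unadjusted p under 0.05, and these were also the 2 that DESeq2 called, Mki67 and Prc1 (6.67% of all genes higher), and limma called 0. The 2 comparisons of Tfh and Tfr share the CD4+ libraries.

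Set against non-Tfh cells, 1 of 36 genes passed in Tfh and 1 in Tfr, and both times it was Mki67. It rose by 1.46 ± 0.30 in Tfh over non-Tfh (SE, edgeR adjusted p = 0.0456), where 4.03% of all genes were called higher, and by 1.51 ± 0.30 in Tfr over non-Tfh (adjusted p = 0.025), where 7.88% were. The medians of the 36 were 1.55 in Tfh and 1.37 in Tfr over non-Tfh. Unadjusted p was under 0.05 for 33 genes in Tfh over non-Tfh and for 22 in Tfr over non-Tfh, and DESeq2 called 28 in Tfh (9.93% of all genes higher) and 20 in Tfr (13.6%). Tfr against Tfh called 0 of 36, with 0 at an unadjusted p under 0.05, 0 by DESeq2 (2.17% of all genes higher) and 0 by limma, and a median of -0.18, where 0.107% of all genes were called higher and 0.291% lower. For MUT over unmarked libraries 0 of 36 were called, with 0 at an unadjusted p under 0.05 and 0 by DESeq2 (0.00592% of all genes higher) and 0 by limma, and 0% of all genes were called in either direction. That median was 0.03.

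Single libraries decide these counts, and the share of all genes called higher, given in brackets, moves with many of them. For Tfh over CD4+ the count of 27 (15.3%) becomes 1, Mki67, without CD4+ (4.16%) or without CD4+ MUT (5.27%), 6 when either of the non-Tfh libraries is left out (9.45% and 9.54%), 14 without Tfh MUT (15.3%) and 36 without Tfh (21.8%). For Tfr over CD4+ the count of 21 (16.8%) becomes 1, Mki67, without CD4+ (5.53%), 2, Mki67 and Prc1, without CD4+ MUT (6.56%) and 3, those and Ccnb2, without Tfr (12.2%). It becomes 7 without either of the non-Tfh libraries (11.3% each), 36 without Tfh (22.7%) or without Tfh MUT (22.9%) and 31 without Tfr MUT (12.8%). For Tfh over non-Tfh the count of 1 (4.03%) becomes 36 without Tfh (14.2%), 1 without either Tfr library (4.38% to 4.53%) and 0 without any other library (0% to 6.62%). For Tfr over non-Tfh the count of 1 (7.88%) becomes 32 without Tfh (15.8%) or without Tfh MUT (16.2%), 4 without Tfr MUT (4.14%), 1 without CD4+ (4.75%) or without CD4+ MUT (4.73%) and 0 without Tfr or without either non-Tfh library (0.215% to 5.66%). For non-Tfh over CD4+ the count of 0 becomes 2, Mki67 and Prc1, without Tfh (6.26%) or without Tfh MUT (6.5%). A population left with 1 library is then assumed to vary like the rest. With Tfh MUT and Tfr both left out, a choice made after seeing the data, the counts were 34 for Tfh over CD4+ (22.9% of all genes called higher), 35 for Tfr over CD4+ (25.7%), 23 for non-Tfh over CD4+ (13.9%), 24 for Tfh over non-Tfh (13.9%) and 27 for Tfr over non-Tfh (20.4%). Tfr over Tfh then called 0 of the 36 (3.99% of all genes higher), and MUT over unmarked libraries called 2 of the 36, Cenpa and Kif23, lower (1.72% of all genes). The medians of the 36 in these last 2 comparisons also turn with single libraries. For Tfr over Tfh the median was -0.90 without Tfh and -0.84 without Tfr, but 0.74 without Tfh MUT and 0.46 without Tfr MUT, and Kif23 was called lower without Tfh (1% of all genes lower). For MUT over unmarked libraries it was 0.39 without either Tfr library and -0.37 without Tfh, and -0.38 without Tfh MUT.

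The libraries labelled MUT differed in opposite ways from the unmarked ones in the Tfh and Tfr pairs. All 36 genes were higher in Tfh MUT than in Tfh, by a median log2(TPM + 1) difference of 1.32, and all 36 were lower in Tfr MUT than in Tfr, by a median of -1.04. Over all genes with at least 1 TPM in either library the medians were -0.04 in the Tfh pair and -0.11 in the Tfr pair. The median was -0.26 in the non-Tfh pair and 0.11 in the CD4+ pair. Each pair has 1 library a side, so none of these differences was tested on its own. The labels were taken as given: whether those of Tfr MUT and Tfr are exchanged was not tested, and an exchange would turn the sign of the Tfr pair.

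B cell markers other than Cd22 moved with the same libraries. Cd79a, a subunit of the B cell receptor, was at 234.35 TPM in Tfh MUT and 46.32 in Tfh, and at 41.28 TPM in Tfr MUT and 171.12 in Tfr, against 34.43 to 40.53 TPM in the 4 non-Tfh and CD4+ libraries. Cd22 went the other way in the Tfh pair, at 41.13 TPM in Tfh MUT and 52.67 in Tfh. It was at 18.95 TPM in Tfr MUT and 18.98 in Tfr. All 7 B cell markers were at 1 TPM or more in the 6 Tfh, Tfr and non-Tfh libraries, and 6 of 7 in the CD4+ libraries, where Cd22 was lowest, at 0.87 TPM in CD4+ MUT and 0.73 TPM in CD4+. Set against each of the 6 B cultures in turn, the median of the 7 markers was 6.93% to 26.3% of the culture's level in Tfh MUT and 5.68% to 14.0% in Tfr. The median of the 36 mitosis genes, set against the 5 cultures other than aCD40+IL4 B, was 41.3% to 65.2% in Tfh MUT and 34.4% to 56.4% in Tfr, and against aCD40+IL4 B it was 255% in Tfh MUT and 232% in Tfr. In a bulk library fewer cells of a type and less RNA per cell cannot be told apart. The part of B cells in the levels of the mitosis genes was not tested.

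**Figure D4:**
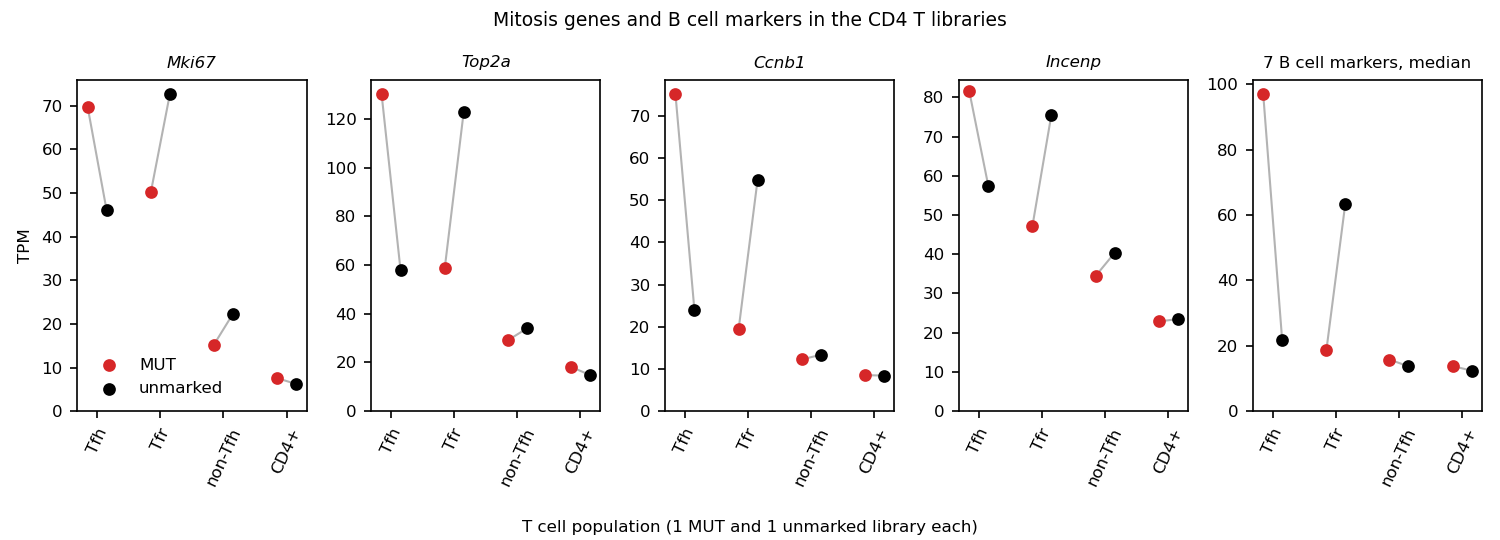
TPM of Mki67, Top2a, Ccnb1 and Incenp and the median TPM of 7 B cell markers (y axes, each from 0) in the 4 T cell populations, with the MUT library in red left of the unmarked library in black, joined by a line. The Tfh MUT and Tfr libraries are the highest in all 5 panels, and for Ccnb1 they are at 75.1 and 54.7 TPM.

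Other genes of the cell cycle were counted in the same fit, where 15.3% of all genes were called higher and 11.2% lower in Tfh over CD4+, and 16.8% higher and 13.6% lower in Tfr over CD4+. Of 65 other mitosis genes, 36 rose and 1 fell in Tfh over CD4+, and 33 rose and 1 fell in Tfr over CD4+, with Depdc1a at 2.66 ± 0.52 (SE, edgeR adjusted p = 0.016) and the kinesin Kif15 at 2.65 ± 0.30 (adjusted p = 0.00293) in Tfh over CD4+. The gene that fell was the condensin II subunit Ncapd3 in both, by 0.89 in Tfh and 0.93 in Tfr on the log2 scale. Of 26 S phase genes, 13 rose in Tfh and 18 in Tfr over CD4+, and none fell, with Tk1, the thymidine kinase, at 2.40 ± 0.23 in Tfh (edgeR adjusted p = 0.00172) and 2.96 ± 0.23 in Tfr (adjusted p = 0.000852). Of 15 subunits of the anaphase-promoting complex and its activator Fzr1, 1 rose in Tfh over CD4+, and 1 rose and 3 fell (Anapc5, Anapc11 and Anapc16) in Tfr over CD4+. The gene that rose was Fzr1 in both, at 0.68 ± 0.17 (edgeR adjusted p = 0.0322 in Tfh and 0.0291 in Tfr). Of 11 DREAM and MuvB subunits 1 rose in Tfh, the E2F partner Tfdp1, at 1.01 ± 0.26 (edgeR adjusted p = 0.0367), and Tfdp1, Tfdp2 and Rbl2 rose in Tfr over CD4+.

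Basophils held the set at a level below that of 5 B cultures and CH12, and the tissues lay below the lymphocytes. By the rule of size 30 of 36 genes were higher in basophils than in splenic B (7.99% of all genes), with a median ratio of 7.55, up to 14.6 for Ube2c. Mki67 was at 160.89 TPM and Top2a at 195.62 TPM in basophils, against 21.15 and 21.94 TPM in splenic B. Among markers of neutrophils and their precursors, Mpo was at 289.0 TPM and Elane at 53.4 TPM in the same library. Ctsg, Ly6g and Prtn3 were at 243.88 to 851.49 TPM there, and Ngp, Ltf and Camp at 0.92 to 6.56 TPM. Monocyte and macrophage markers ran from 22 TPM for Fcgr1 to 1365.98 TPM for Lyz2. Whether such cells were present, and their part in the mitosis genes, was not tested. In back skin 0 of 36 were higher than in splenic B (14.3% of all genes) and 2 were lower, Mad2l1 and Ndc80 (12.8% of all genes). Of the 36 genes, those lower than in splenic B by the rule numbered 8 in medulla (11.3% of all genes), 3 in putamen (10.3%; Mki67, Cenpa and Ndc80) and 6 in cortex (11.9%), which is limited by the low level of splenic B itself.

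Anln was the exception in brain. It was at 83.11 TPM in medulla, 27.76 in putamen and 17.75 in cortex, against 1.56 TPM in splenic B, and at 1.01 to 19.29 TPM in the other 18 libraries. It was the single one of the 36 that was higher by the rule of size in medulla (20.9% of all genes), putamen (19.8%) and cortex (20.8%) than in splenic B. Across all 22 libraries its correlation with the mean of the other members on the log scale was 0.14, and over the 19 libraries that are not brain it was 0.95, as a description. The oligodendrocyte genes Mog and Mbp ran in the same order, with Mog at 390 TPM in medulla, 133 TPM in putamen and 103 TPM in cortex. Incenp was at 20.09 TPM in cortex, against 22.97 TPM in splenic B, and Mad2l1 was at 6.14 to 9.42 TPM in the 3 brain regions, while Cdk1, Ccnb1 and Bub1 were at 0.13 to 4.18 TPM there.

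**Figure D5:**
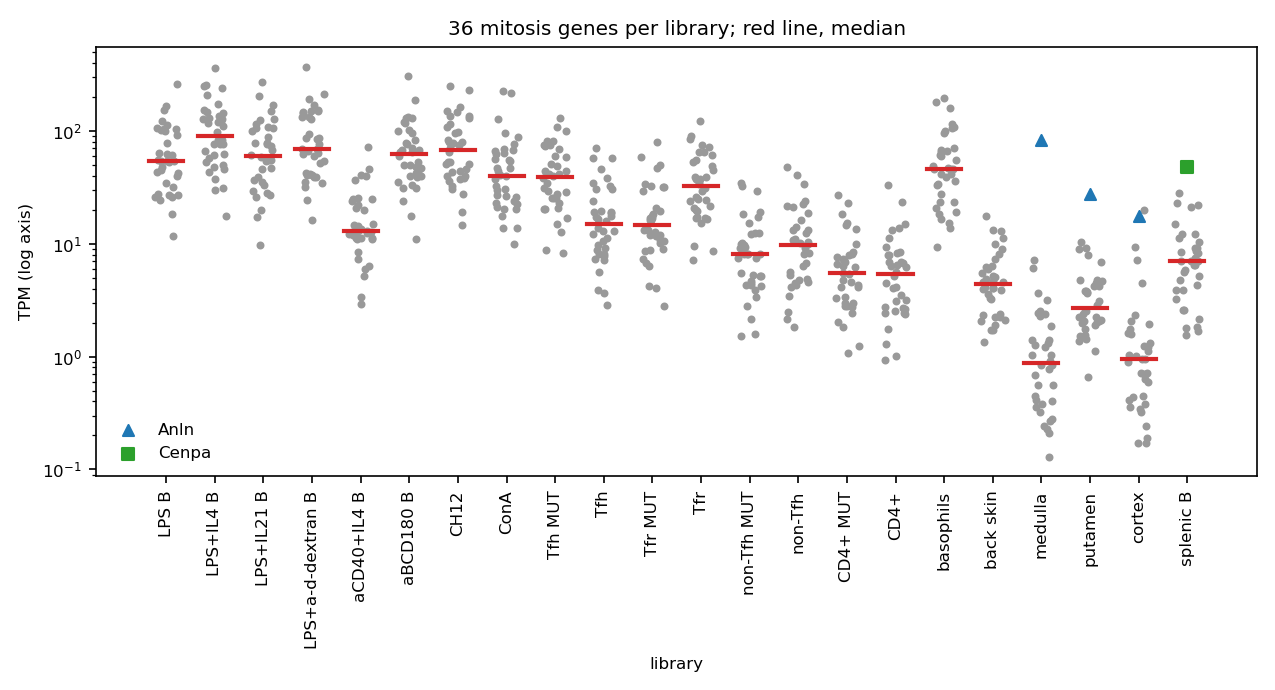
TPM of each of the 36 mitosis genes (grey points, log axis) in each library, with the median as a red line. Anln is drawn as a blue triangle in the 3 brain regions, at 83.1 TPM in medulla, and Cenpa as a green square in splenic B, at 47.5 TPM.

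Against splenic B the sorted T libraries split in the same way as among themselves. By the rule of size 23 of 36 genes were higher in Tfh MUT (5.22% of all genes) and 21 in Tfr (5.6%), 1 was higher in Tfr MUT (5.32%), namely Melk, and 0 were higher in Tfh (5.11%), non-Tfh MUT (3.54%), non-Tfh (3.55%), CD4+ MUT (2.78%) and CD4+ (2.86%).

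Outside the 36 and the lists, the 10 genes whose log2(TPM + 1) ran most like the mean of the 36 over the 22 libraries included C330027C09Rik (r = 0.99), Esco2, Ticrr, Pclaf, Stil, Mtfr2, Cks1b, Eme1 and Neil3 (r = 0.98). These values are a description, with no test, since the 22 libraries are the same ones for every gene. Esco2 is known to tie sister chromatids together. C330027C09Rik ranged from 1.86 to 48.17 TPM and Cks1b, a small partner of the mitotic kinase, from 6.04 to 281.04 TPM.

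Some of the 36 share a place in the genome with another expressed gene. In the annotation Ccna2 overlaps Exosc9, Aurka overlaps Cstf1, Cdc20 overlaps Elovl1, Kif20a overlaps Brd8 and Cdc23, Nusap1 overlaps Oip5, Prc1 overlaps Rccd1 and Anln overlaps 9530077C05Rik. Whether the counting used strand is not given in the sources used here, so the levels of these 7 genes are uncertain to that extent.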

How the data were processed

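Poly(A) RNA was sequenced for 50 cycles, per the labels' protocols, which give 0.5 M cultured cells per extraction. The submitters' processing notes name mm10 and, as tools, RSEM, STAR, bedtools and CASAVA 1.8.2. Order and settings are not given in the sources used here. Per the file headers, the deposited expected counts are the authors' estimated reads per gene without normalization (86.1% of those above 0 were exactly whole, and the rest were rounded here). The deposited TPM are the authors' length-scaled shares, with the same total in each library. The deposited FPKM were not used.

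Groups came from the labels, with 1 library each. The 36 members, the gene lists and the tests were chosen with earlier results of these data known. Library fits used the quasi-likelihood test of edgeR 4.0.16 (R 4.3.3) after filterByExpr and TMM scaling, with p-values adjusted by Benjamini-Hochberg across every tested gene and read at 0.05, with population and MUT as terms for the 8 T libraries and activation as the term for 7 B libraries. Comparisons with 1 library on a side used the rule of size: a difference of at least 2 in log2(TPM + 1) from every library on the other side, with at least 10 TPM on the higher side, among genes with at least 1 TPM. Intervals from counting alone were computed only for the middle gene of the set in each library, to judge the TMM-scaled medians. The lowest count of 8 limits precision in brain. Also tried were DESeq2 1.42.0, limma 3.58.1 on log2(TPM + 1), fits without the filter or with RLE scaling, a pseudocount of 0.1, a minimum of 1 TPM, TMM-scaled TPM and each library left out in turn. Genes named with a value in every library of a comparison were Mki67, Top2a, Cdk1, the cyclins and genes at the ends of each role group. Non-members were named as the 3 with the largest called change in a list, or as the 10 most like the set, of which 1 is not reported here. Mog, Mpo, Elane, Ddx3y and Cd79a were chosen as cell markers, and other values were chosen after they were seen. The edgeR test was also run on simulated counts drawn with the same spread for every gene. That setting differs from these libraries, so it does not show how the test performs on them. Promoters are from RefSeq.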

Additional observations from a re-analysis of the deposited data

Results flagged for a closer look

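The aCD40+IL4 culture was the lowest of the 6 activated B cultures for all 36 genes, and for 3 genes its gap to the next culture was large against the range of the 6 (Dixon's test at the 95% level). Top2a was at 71.75 TPM, Ccna2 at 23.73 TPM and Aurkb, the Aurora kinase of the passenger complex, at 25.34 TPM in aCD40+IL4 B. Chance alone marks about 1 in 20 such groups, and the 36 genes are not independent of one another.

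The libraries labelled MUT differed from the unmarked ones with opposite signs in 2 populations. The median log2(TPM + 1) difference over the 36 genes was 1.32 for Tfh MUT minus Tfh, with every gene higher, and -1.04 for Tfr MUT minus Tfr, with every gene lower. The difference between the pairs was not tested. An exchange of the labels of Tfr MUT and Tfr, which was not tested either, would give both pairs the same sign. The B cell markers other than Cd22 move the same way as the 36 genes.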

How the results depend on the processing

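No paired analysis was possible because the labels give no replicate numbers, except that the fit with population as a term sets MUT against unmarked libraries within each of 4 populations. Changes of sign were looked for in a chosen part of the 36 genes, in the fits against CD4+, non-Tfh or splenic B, and none was seen. Other called genes were not checked. The medians of the 36 genes for Tfr over Tfh and for MUT over unmarked libraries, where none of the 36 was called in the main fit, changed sign with single libraries left out (-0.90 to 0.74 and -0.38 to 0.39). With a minimum of 1 TPM in place of 10, 18 of the 36 genes were lower in medulla (12.6% of all genes) and 15 in cortex (13.5%) than in splenic B. TMM-scaled TPM moved the median of the 36 to 93.2 in LPS+IL4 B, 72.3 in LPS+a-d-dextran B, 64.8 in CH12, 43.7 in ConA, 34.8 in Tfh MUT, 29.4 in Tfr and 53.9 in basophils, and the other medians stayed within the counting error of the middle gene. DESeq2 called 2 of 36 for non-Tfh over CD4+, 35 for Tfr over CD4+, 28 for Tfh over non-Tfh, 20 for Tfr over non-Tfh and 34 for the B cultures over splenic B. Limma called 2, Mki67 and Cenpa, for Tfh (6.56% of all genes higher) and for Tfr over non-Tfh (12.8%), and edgeR without the filter called 2, Mki67 and Cenpf, for Tfr over non-Tfh (6.05%). Without Tfh MUT and Tfr the calls were 23 for non-Tfh over CD4+, 35 for Tfr over CD4+, 24 for Tfh over non-Tfh, 27 for Tfr over non-Tfh and 2 lower for MUT. Without both IL4 cultures edgeR called 34 for the B cultures over splenic B, where 7.89% of all genes were called higher. The cause of these changes was not tested. Both of these choices were made after seeing the data. Leaving out 1 library at a time gave 1 to 36 of 36 for Tfh over CD4+, 1 to 36 for Tfr over CD4+, 0 to 2 for non-Tfh over CD4+, 0 to 36 for Tfh over non-Tfh, 0 to 32 for Tfr over non-Tfh, 0 to 1 lower (Kif23) for Tfr over Tfh and 0 to 31 for the B cultures over splenic B. Of the values of the same chosen part of the 36 genes under an alternative, 52 passed the threshold only there and 52 no longer did.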
